A study of Mus musculus with 16 samples.

Results

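The Bcl2 family and its upstream death regulators were followed through oocyte maturation in 10 genes. Bcl2l10, Mcl1, Bcl2l1 and Bcl2 were listed as anti-apoptotic, Bax, Bak1 and Bok as effectors, Bid and Bcl2l11 as BH3-only proteins, and Trp63 as a p53 relative. All 10 were taken by gene name from an expression table of 28618 entries with 27987 names, where each had 1 entry. The table held 16 Smart-seq2 libraries of mouse oocytes, 4 in each of 4 groups. The groups crossed genotype, WT or Psma7 cKO, with stage, germinal vesicle (GV) oocytes or metaphase II (MII) eggs.

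Psma7 cKO stands for Zp3-Cre; Psma7 flox/flox, in which a Cre recombinase driven by the Zp3 promoter removes Psma7, an alpha subunit of the 20S proteasome, in growing oocytes. WT was labelled wildtype. The study's methods give C57BL/6 for the mice carrying the floxed Psma7 allele and do not name a strain for the WT females separately. All females were 3 to 4 weeks old and received 5 IU of PMSG. GV oocytes were taken 44 h later, and MII eggs came from oviducts 14 to 16 h after a following hCG injection and were freed of cumulus cells with 0.3% hyaluronidase. The study reported that some ovulated Psma7 cKO oocytes stayed at the GV stage or arrested within meiosis I. Its transcriptome methods do not say whether such oocytes were kept out of the Psma7 cKO MII pools, and their part in the values was not tested. Each library pooled 5 oocytes. The labels call the libraries biological replicates without saying which animals fed each pool, so p-values measure the spread between these pools.

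Bcl2 family proteins decide at the mitochondrial outer membrane whether cytochrome c leaves the mitochondria. Effectors such as Bax and Bak1 form the pore, anti-apoptotic proteins such as Bcl2l1 (Bcl-xL) and Mcl1 hold them in check, and BH3-only proteins such as Bid and Bcl2l11 (Bim) relay death signals to both. In the ovary, Bax and Bcl2 are known for setting the size of the oocyte reserve, and the TAp63 form of Trp63 removes oocytes with damaged DNA.

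Depth ran from 10524481 to 15653019 fragments per library, recovered from the FPKM steps, and no 2 of the libraries were identical. FPKM, the fragments of a gene scaled by its length and by the library's total, is a share of a library and not an amount per oocyte. In such pools, fewer oocytes that express a gene and less RNA per oocyte cannot be told apart. Psma7 itself was at 165 ± 25.3 FPKM in WT GV and 14.6 ± 2.82 in Psma7 cKO GV (mean ± SD, n = 4 each), and at 126 ± 32.1 in WT MII and 39.7 ± 20.2 in Psma7 cKO MII. All 10 oocyte markers, among them Zp3 and Gdf9, were at or above 1 FPKM in every group mean. Of 14 cumulus and granulosa markers, Amh, Foxl2, Ptx3 and Tnfaip6 had group means of at most 0.0193 FPKM, while Cyp19a1 reached 13.7 and Kitl 6.11.

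Bcl2l10 (chromosome 9, 75347758 to 75351632, plus strand, GRCm38) encodes the ovary-enriched family member also called Diva or Boo. Its listing as anti-apoptotic was not tested here. Bcl2l10 was the highest of all 28618 entries in every one of the 16 libraries. WT GV replicates 1 to 4 held 4804, 4838, 5777 and 4723 FPKM, and Psma7 cKO GV replicates held 5575, 4511, 4464 and 4777 FPKM. WT MII replicates held 10807, 11076, 10742 and 10806 FPKM, and Psma7 cKO MII replicates held 9477, 10389.8, 9297 and 10830.1 FPKM. Every egg library stood above every GV library, and the genotypes overlapped at both stages. The most even group was WT MII, with a coefficient of variation of 1.37%, against 9.86% in WT GV, 10.6% in Psma7 cKO GV and 7.33% in Psma7 cKO MII. These levels rested on 61741 to 198820 fragments per library. They came to 0.618% ± 0.0610 of all fragments in WT GV and 1.33% ± 0.0182 in WT MII.

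The entry ranked next was Zp3 in 5 libraries, the ubiquitin gene Ubb in 3, and the mitochondrial or ribosomal entries CYTB and Rn18s-rs5 in 4 each. Bcl2l10 exceeded that entry by 1.05-fold to 1.28-fold in the GV libraries and by 1.22-fold to 1.59-fold in the eggs. The 9 other members summed to only 24.1 to 41.4 FPKM in GV libraries and 10.5 to 15.5 FPKM in eggs. Bcl2l10 therefore made up 99.2% to 99.6% of the FPKM of the 9 Bcl2 family members in GV oocytes and 99.9% in each group of eggs. In the ranked levels of all entries, Bcl2l1 stood above 89.6% of entries in WT GV and 78.4% in WT MII. Bax stood above 80.1% and 76.6%, while Bcl2, Bak1 and Bok stood above at most 34.25% in these groups.

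**Figure D1:**
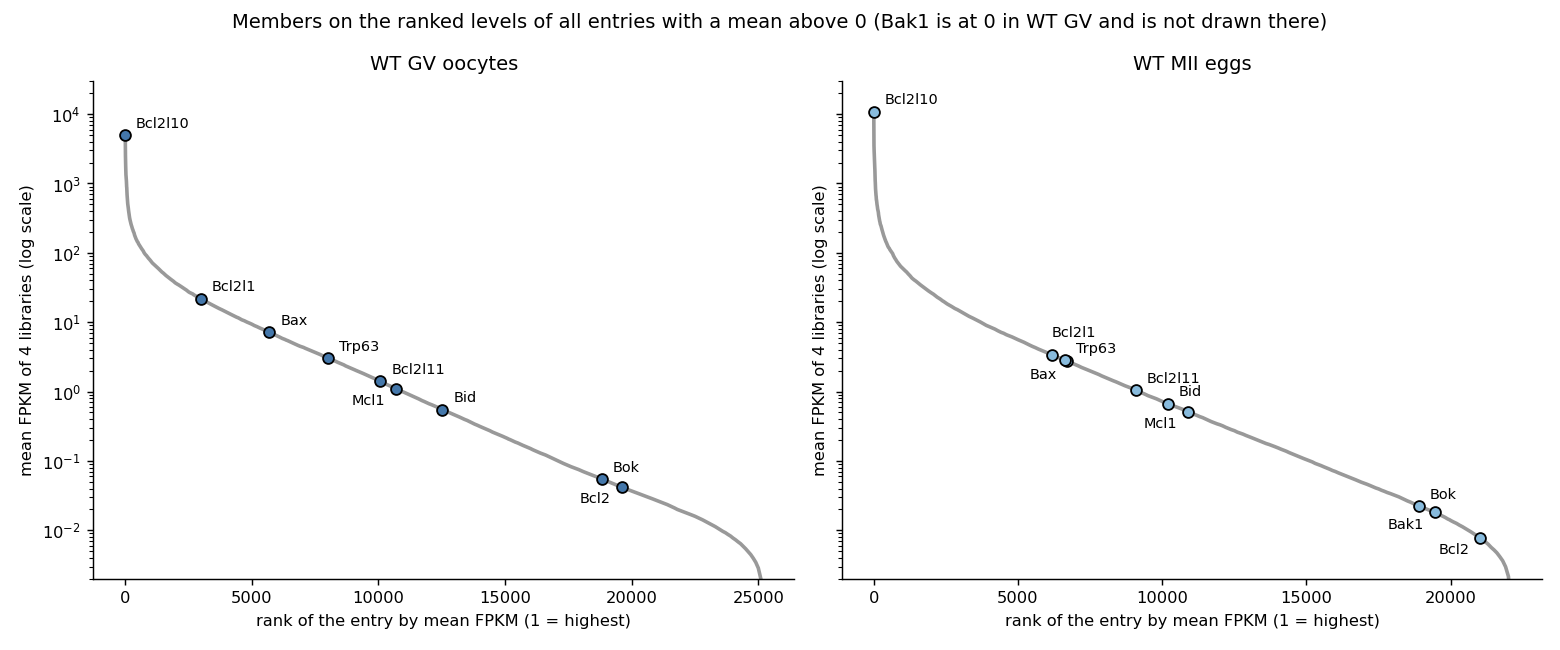
Mean FPKM of all entries (log scale) against their rank, for WT GV oocytes (left) and WT MII eggs (right), with the members as labelled points. Bcl2l10 sits at rank 1 in both panels, Bcl2l1 at rank 2978 and 6180, and Bok and Bcl2 near the low end. Bak1 is drawn for eggs only, since all WT GV libraries had 0 fragments.

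The 3′ ends of the transcripts are shown because maturing oocytes are known to lengthen the poly(A) tails of mRNAs that carry a cytoplasmic polyadenylation element close to the poly(A) signal, and the libraries were primed with oligo-dT. Sequences are from GENCODE M21 on GRCm38, written 5′ to 3′ on the transcript's strand, which alone was searched. Capitals mark the poly(A) signal AATAAA at the right end and, where present, an element TTTTAT or TTTTAAT to its left.
Bcl2l10, chr9:75351591-75351617, plus strand: TTTTAATaacttcaaattcttAATAAA
Bcl2l11, chr2:128162515-128162529, plus strand: TTTTATataAATAAA
Bcl2l1, chr2:152780689-152780718, minus strand: gtgaaggtgaaagtgcagttcagtAATAAA
Bax, chr7:45461718-45461747, minus strand: ggaatggtggcctggggaggcgccAATAAA
Mcl1, chr3:95663134-95663163, plus strand: aacttctgtttcttctgaagagaaAATAAA
Bcl2l10 and Bcl2l11 held an element within the 100 bases before the signal, without overlap with it, at a distance of 14 and 3 bases. The other 7 members with a signal in their last 50 bases, Bcl2l1, Bax, Mcl1, Bcl2, Bak1, Bok and Trp63, held neither motif in that window, and Bid had no AATAAA or ATTAAA in its last 50 bases. Among all 17050 protein-coding genes with such a signal, 16.1% had an element in the same window. The share was 29.9% of the genes that were higher in WT MII than in WT GV, 11.6% of those that were lower and 22.7% of those not called. A match of letters is a description of the transcript end and not a mapped site of binding, and the part of tail length in the FPKM values was not tested.

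In WT oocytes, Bcl2l10 was 2.16-fold higher in MII eggs than in GV oocytes, at 10857.7 ± 148 against 5035 ± 497 FPKM (log2 fold change 1.11 ± 0.09 SE, limma adjusted p = 8.59e-07). All p-values adjusted in this way come from limma with Benjamini-Hochberg adjustment over all entries tested, on log2 FPKM with values under 1 set to 1. In Psma7 cKO oocytes the rise was 2.07-fold, from 4832 ± 514 to 9998 ± 732 FPKM (log2 fold change 1.05 ± 0.10 SE, limma adjusted p = 1.93e-05). Its log2 fold change lay above that of 94.2% of all entries tested in WT and 94.8% in Psma7 cKO.

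Bcl2l1 (chromosome 2, 152780668 to 152831728, minus strand) moved the other way. Its product Bcl-xL is an anti-apoptotic protein of the mitochondrial membrane, and the table does not separate its splice forms. WT GV replicates held 25.9, 23.9, 12.1 and 25.9 FPKM, and Psma7 cKO GV replicates held 15.4, 24.2, 25.1 and 22.8 FPKM. WT MII replicates held 2.90, 3.28, 4.05 and 3.32 FPKM, and Psma7 cKO MII replicates held 6.15, 4.58, 4.68 and 3.97 FPKM. All eggs lay below all GV oocytes. WT GV replicate 3 was low, and it was also the GV library with the most Bcl2l10. Psma7 cKO GV replicate 1 was the lowest of its group and likewise the highest for Bcl2l10. Between stages, Bcl2l1 fell 6.48-fold in WT (log2 fold change -2.64 ± 0.23 SE, limma adjusted p = 1.56e-06) and 4.51-fold in Psma7 cKO (-2.17 ± 0.19, adjusted p = 1.03e-05). With each library left out in turn, the WT value ran from -2.91 to -2.54. The Bcl2l10 mean was thus 229.6 times that of Bcl2l1 in WT GV and 3206 times in WT MII, both in FPKM. These ratios depend on the lengths behind the FPKM values, 1228 nt for Bcl2l10 and 8146 nt for Bcl2l1. The transcripts whose ends are shown above are 1220 and 2568 nt long, and with those lengths the ratios would be smaller.

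Mcl1 (chromosome 3, 95658788 to 95663176, plus strand), a short-lived anti-apoptotic protein on which the oocyte reserve is known to depend, was scarce. WT GV replicates held 1.51, 0.845, 1.26 and 0.796 FPKM, and Psma7 cKO GV replicates held 0.885, 1.31, 1.68 and 1.12 FPKM. WT MII replicates held 0.447, 0.648, 0.552 and 0.399 FPKM, and Psma7 cKO MII replicates held 0.574, 0.350, 0.567 and 0.420 FPKM. All eggs lay below all GV oocytes, on 17 to 100 fragments per library. The mean was 2.16-fold lower in WT MII than in WT GV and 2.62-fold lower in Psma7 cKO MII than in Psma7 cKO GV (exact two-sided permutation p = 0.0286 in each, the smallest that 4 against 4 libraries can give). Its mean was under 1 FPKM in both maturation comparisons, so limma did not test it there. limma-voom on the recovered fragments, which required a mean of 10 fragments, called it lower in WT (log2 fold change -1.08 ± 0.29 SE, adjusted p = 0.00347) and in Psma7 cKO (-1.37 ± 0.28, adjusted p = 0.000959). Bcl2 (chromosome 1, 106538178 to 106714274, minus strand), the founding anti-apoptotic member, had 0 to 8 fragments per library and at most 0.0790 FPKM. It was at 0 in 6 of 16 libraries, and its largest group mean was 0.0423 ± 0.0394 FPKM in WT GV.

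Of the effectors, Bax (chromosome 7, 45461697 to 45466898, minus strand) was the one clearly present. WT GV replicates held 7.65, 6.19, 6.88 and 7.88 FPKM, and Psma7 cKO GV replicates held 4.96, 9.14, 8.36 and 7.17 FPKM. WT MII replicates held 2.62, 2.64, 2.70 and 3.10 FPKM, and Psma7 cKO MII replicates held 3.28, 2.39, 5.31 and 3.83 FPKM. WT stages did not overlap, while in Psma7 cKO egg replicate 3 lay above GV replicate 1. Bax fell 2.58-fold with maturation in WT (log2 fold change -1.37 ± 0.13 SE, limma adjusted p = 2.07e-06) and 2.00-fold in Psma7 cKO (-1.02 ± 0.27, adjusted p = 0.00663). Bcl2l1 stood at 1.75 to 3.87 times Bax in WT GV libraries and at 1.07 to 1.50 times in WT MII libraries, in FPKM. In Psma7 cKO it stood at 2.64 to 3.18 times Bax in GV libraries and at 0.881 to 1.91 times in MII libraries. The lowest value, in replicate 3, came from 513 fragments of Bcl2l1 and 159 of Bax. Which gene was lower there depends on the lengths behind the FPKM values, 8146 nt for Bcl2l1 and 2225 nt for Bax.

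Bak1 (chromosome 17, 27019810 to 27029009, minus strand), which shares the pore-forming role of Bax, had 0 fragments in all 4 WT GV and all 4 Psma7 cKO MII libraries. A count of 0 over the 4 WT GV libraries allows a level of up to 0.0247 FPKM (3 fragments over the group, counting error only). It had 2 fragments in all in Psma7 cKO GV and 2 in WT MII. Bok (chromosome 1, 93685660 to 93695764, plus strand), an effector known to be expressed in reproductive tissue, had 0 to 3 fragments per library and was at 0 in 8 of 16 libraries. Group means of Bok ran from 0.0224 ± 0.0448 FPKM in WT MII to 0.0887 ± 0.0605 in Psma7 cKO GV. At this depth no difference in Bak1, Bok or Bcl2 was detectable between stages or genotypes (exact two-sided permutation p from 0.143 to 1.0, 4 against 4 libraries).

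**Figure D2:**
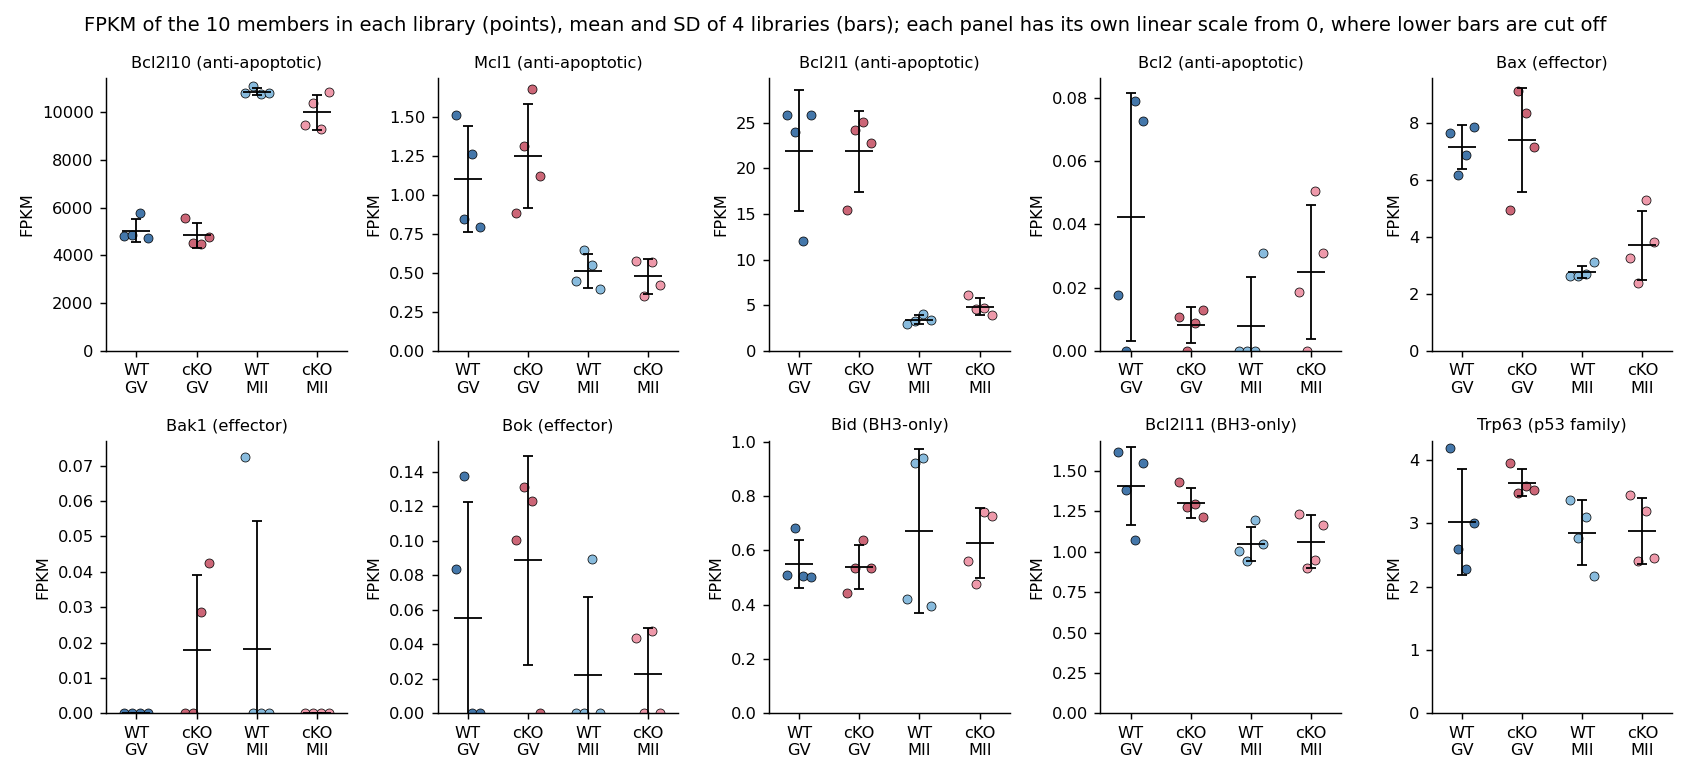
FPKM of each of the 10 members in every library (points, 4 per group) with the mean and SD of the group (bars), on a linear axis of its own from 0. Bcl2l10 is higher in all eggs than in all GV oocytes, Bcl2l1 and Mcl1 are lower in all eggs, and Bcl2, Bak1 and Bok stay at or under 0.137 FPKM.

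The BH3-only members were low. Bcl2l11 (chromosome 2, 128126038 to 128162547, plus strand) encodes Bim, which activates Bax and binds the anti-apoptotic proteins. It was at 1.40 ± 0.242 FPKM in WT GV, 1.30 ± 0.0914 in Psma7 cKO GV, 1.05 ± 0.107 in WT MII and 1.06 ± 0.162 in Psma7 cKO MII (n = 4 each). In WT maturation it passed the threshold as lower (log2 fold change -0.39 ± 0.15 SE, limma adjusted p = 0.0365). That call was lost without any one of WT GV replicates 1, 2 and 4 and WT MII replicates 1, 2 and 4 (adjusted p from 0.0588 to 0.0881), and the log2 fold change was -0.18 (adjusted p = 0.274) after median-ratio rescaling. In Psma7 cKO it was not called (-0.25 ± 0.11, limma adjusted p = 0.0745). Bid (chromosome 6, 120891930 to 120916853, minus strand), which caspase-8 cleaves to link death receptors to mitochondria, stood at 0.395 to 0.941 FPKM on 12 to 31 fragments per library. WT MII was the most uneven group for Bid, with 2 libraries near 0.4 and 2 above 0.9 FPKM. Its WT MII mean was 0.670 ± 0.302 FPKM against 0.550 ± 0.0883 in WT GV (exact two-sided permutation p = 0.429).

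Trp63 (chromosome 16, 25683763 to 25892102, plus strand) held 4.20, 2.60, 2.28 and 3.01 FPKM in WT GV replicates and 3.96, 3.48, 3.59 and 3.53 FPKM in Psma7 cKO GV replicates. WT MII replicates held 3.37, 2.77, 3.11 and 2.18 FPKM, and Psma7 cKO MII replicates held 3.45, 2.41, 3.19 and 2.46 FPKM. The stages overlapped in WT and did not overlap in Psma7 cKO. The WT difference was not called (log2 fold change -0.06 ± 0.21 SE, limma adjusted p = 0.795), with a 95% interval from -0.52 to 0.40. The Psma7 cKO difference fell just short of the threshold (-0.36 ± 0.15, limma adjusted p = 0.0533) and passed it in limma-voom (-0.35 ± 0.14, adjusted p = 0.0471). With each library left out, the adjusted p in limma ran from 0.0203 to 0.143, passing without Psma7 cKO MII replicate 1 or replicate 3. After median-ratio rescaling the value was -0.16 (limma adjusted p = 0.317). Forms of Trp63 with and without the transactivating domain are not separated in the table.

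Counted together, 4 of 5 members tested changed with maturation in WT, 1 higher and 3 lower, where 26.1% of 10475 entries tested were higher and 52.4% lower. In Psma7 cKO 3 of 5 changed, 1 higher and 2 lower, against 23.0% and 51.0% of 10748 entries. With most of the table called, these counts say little about the members as a set. The median log2 fold change was -0.39 over the 5 members and -0.44 over all entries in WT, and -0.36 and -0.42 in Psma7 cKO. Median-ratio rescaling moved the medians of all entries to -0.21 and -0.22 and raised the share of calls that were higher from 33.3% to 42.1% in WT and from 31.1% to 39.8% in Psma7 cKO. Rescaled, Bcl2l10 remained higher (1.34 and 1.25) and Bcl2l1 (-2.41 and -1.97) and Bax (-1.14 and -0.82) remained lower in WT and Psma7 cKO, while Trp63 turned to 0.17 in WT without being called. Rescaling moved these values upward, so it did not put the rise of Bcl2l10 to a test. limma-voom called 5 of 7 members tested in each genotype, where it called 74.7% of entries in WT and 71.0% in Psma7 cKO. With a 3-fold difference of means as the rule, Bcl2l1 was the single member past it in either genotype, and 23.2% and 18.0% of entries were past it. Both maturation comparisons share their libraries with the genotype comparisons. Summed cumulus and granulosa markers ran from 14.0 to 20.6 FPKM in GV libraries and from 17.7 to 22.2 FPKM in eggs, and their part in the stage differences was not tested.

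**Figure D3:**
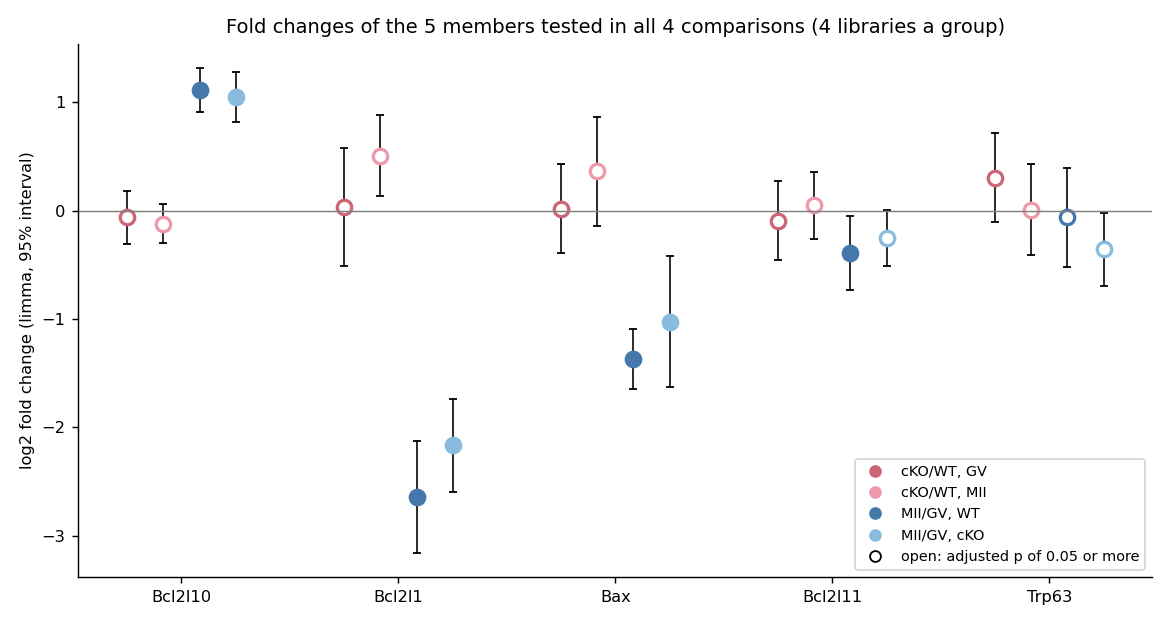
log2 fold changes with 95% intervals from limma for the 5 members tested in all 4 comparisons of 4 against 4 libraries, with filled points for an adjusted p under 0.05. Bcl2l10 lies near 1.1 in both maturation comparisons, Bcl2l1 at -2.64 and -2.17 and Bax at -1.37 and -1.02, and all points for genotype are open.

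Between genotypes, no member passed the threshold in GV oocytes. limma called 0 of 6 tested (0 at an unadjusted p under 0.05) and limma-voom 0 of 7 (also 0 unadjusted). Of all entries, limma called 0.0994% higher and 0.0181% lower, limma-voom called 0.165%, and 0.0633% passed the 3-fold rule. Bcl2l10 was at 95.96% of its WT mean, with a 95% interval of the log2 difference from -0.31 to 0.19. The interval ran from -0.51 to 0.58 for Bcl2l1, from -0.39 to 0.43 for Bax and from -0.10 to 0.72 for Trp63. The Trp63 difference had the smallest adjusted p of the members (log2 fold change 0.31 ± 0.19 SE, limma adjusted p = 0.612). Bcl2l1 turned from 0.03 to -0.23 without WT GV replicate 3, with an adjusted p of 0.712 in limma.

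In MII eggs limma called 0 of 5 members tested, and 1, Bcl2l1, had an unadjusted p under 0.05. limma-voom called 0 of 7, with 2 unadjusted, Bcl2l1 and Bcl2l10. Across the table limma called 6.53% of entries higher and 1.49% lower in Psma7 cKO eggs, limma-voom called 6.18%, and 1.78% passed the 3-fold rule. Bcl2l1 was at 4.84 ± 0.924 FPKM in Psma7 cKO eggs and 3.39 ± 0.480 in WT eggs, and the groups overlapped by the Psma7 cKO replicate at 3.97 FPKM and the WT replicate at 4.05 FPKM. The 1.43-fold difference was not called (log2 fold change 0.51 ± 0.16 SE, 95% interval 0.14 to 0.88, limma adjusted p = 0.0845). Bax was at 3.70 ± 1.22 against 2.77 ± 0.227 FPKM (log2 fold change 0.36 ± 0.22 SE, limma adjusted p = 0.305). Bcl2l10 was at 9998 ± 732 against 10857.7 ± 148 FPKM (-0.12 ± 0.08, 95% interval -0.30 to 0.06, limma adjusted p = 0.339). Bcl2l11 and Trp63 were within 1.01-fold of their WT means.

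Transcripts that decline with maturation were summed in each egg library. Over 397 entries more than 10-fold lower in WT MII than in WT GV, WT eggs held 5.93% to 6.80% of the WT GV level and Psma7 cKO eggs held 12.8%, 8.89%, 34.8% and 19.2% in replicates 1 to 4. The entries were chosen by their low level in these same WT eggs. The low WT share therefore follows from the rule, a higher share elsewhere is partly expected, and the difference was not tested. Among Psma7 cKO eggs, Bax was highest in replicate 3, which held most of these transcripts, while Bcl2l1 was highest in replicate 1. Of the 10 oocyte markers, limma called Zp3, Ooep and Figla higher in Psma7 cKO eggs, beside 6.53% of all entries, and the other 7 were not called. Ooep was not called as declining in WT maturation (log2 fold change -0.19, limma adjusted p = 0.252). Its call in eggs was lost after median-ratio rescaling (limma adjusted p = 0.0544). The part of the declining transcripts in the Bcl2l1 and Bax values was not tested. In the difference of maturation changes between genotypes, limma called 0 of 5 members (0 unadjusted) and limma-voom 0 of 7 (0 unadjusted). There limma called 1.07% of entries higher and 0.188% lower in Psma7 cKO, and limma-voom called 1.40%. The largest member value was that of Bcl2l1 (0.47 ± 0.32 SE, limma adjusted p = 0.489), with a 95% interval from -0.21 to 1.16.

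Around the members, 66 further death pathway genes were listed by role, of which 63 were in the table. The related anti-apoptotic genes Bcl2l2, Bcl2a1a, Bcl2a1b and Bcl2a1d had group means of at most 0.132 FPKM and were not tested. In WT maturation 38 of the 66 were tested, of which 14 were higher and 18 lower, with a median log2 fold change of -0.30, where 26.1% of all 10475 entries tested were higher and 52.4% lower. After rescaling the counts were 16 and 13, no call changed sign, and Bik, Casp2, Casp8, Casp9 and Diablo lost theirs. The largest rises were in Usp9x, a deubiquitinase known to stabilise Mcl1 protein (43.96 ± 6.31 to 104 ± 3.67 FPKM, log2 fold change 1.25), in Bnip3, a mitochondrial mitophagy receptor (62.2 ± 5.07 to 140.3 ± 18.98 FPKM, 1.17), and in Apaf1, the scaffold of the apoptosome (2.05 ± 0.384 to 4.07 ± 0.316 FPKM, 1.00). With values under 1 FPKM set to 1, the largest falls in limma were in Btrc, an F-box ubiquitin ligase subunit (33.96 ± 2.30 to 4.55 ± 0.337 FPKM, -2.90), in Vdac3, a mitochondrial channel (320.1 ± 18.2 to 44.9 ± 10.3 FPKM, -2.86), and in Fadd, the death receptor adaptor (7.14 ± 0.544 to 0.680 ± 0.0793 FPKM, -2.83). All 6 passed with limma adjusted p of at most 0.000119. The order of the falls depends on this floor. In limma-voom on recovered fragments, Tradd (-4.67), which limma did not test here, Fadd (-3.36) and Csnk1d (-2.97) fell further than Btrc (-2.90).

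By role, all 4 caspases tested were lower in WT eggs, where 52.4% of all entries tested were lower, led in level by Casp8 at 34.7 ± 3.75 FPKM in GV and 25.3 ± 2.92 in MII (log2 fold change -0.46, limma adjusted p = 0.00284), and after rescaling only Casp6 of these 4 kept its call. Cycs, which encodes somatic cytochrome c, went from 8.12 ± 1.23 to 3.63 ± 0.833 FPKM (-1.18, limma adjusted p = 0.000112). Of the 9 p53 family and DNA damage genes tested besides Trp63, 6 were higher and 1 lower, and of the 6 caspase inhibitors 2 were higher and 2 lower, again beside 26.1% and 52.4% of all entries. In Psma7 cKO maturation 10 of 38 were higher and 17 lower, beside 23.0% and 51.0%. After rescaling, 13 of 37 were higher and 9 lower, beside 29.4% and 44.5% of all entries. Birc2, Birc5, Casp2, Casp6, Casp9, Diablo and Vdac2 lost their calls there. Between genotypes, 0 of 39 were called in GV oocytes. In MII eggs 2 of 36 were called, both higher in Psma7 cKO, which is close to the share of the table. These were Bnip3l, a mitophagy receptor like Bnip3 (83.6 ± 8.60 against 61.8 ± 6.42 FPKM, log2 fold change 0.44, limma adjusted p = 0.0363), and the inhibitor Birc5, or survivin (301.0 ± 62.2 against 196 ± 19.7 FPKM, 0.60, limma adjusted p = 0.0456). With each egg library left out, the log2 fold change ran from 0.38 to 0.49 for Bnip3l and from 0.50 to 0.74 for Birc5. Bnip3l kept its call without Psma7 cKO MII replicate 2 and lost it without any other of the 8 egg libraries (limma adjusted p from 0.0503 to 0.104), and Birc5 kept it without Psma7 cKO MII replicate 4 and lost it without any other (0.0541 to 0.110). Birc5 and Bnip3l both fell with maturation in WT, by 1.03 and 1.09 on the log2 scale.

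**Figure D4:**
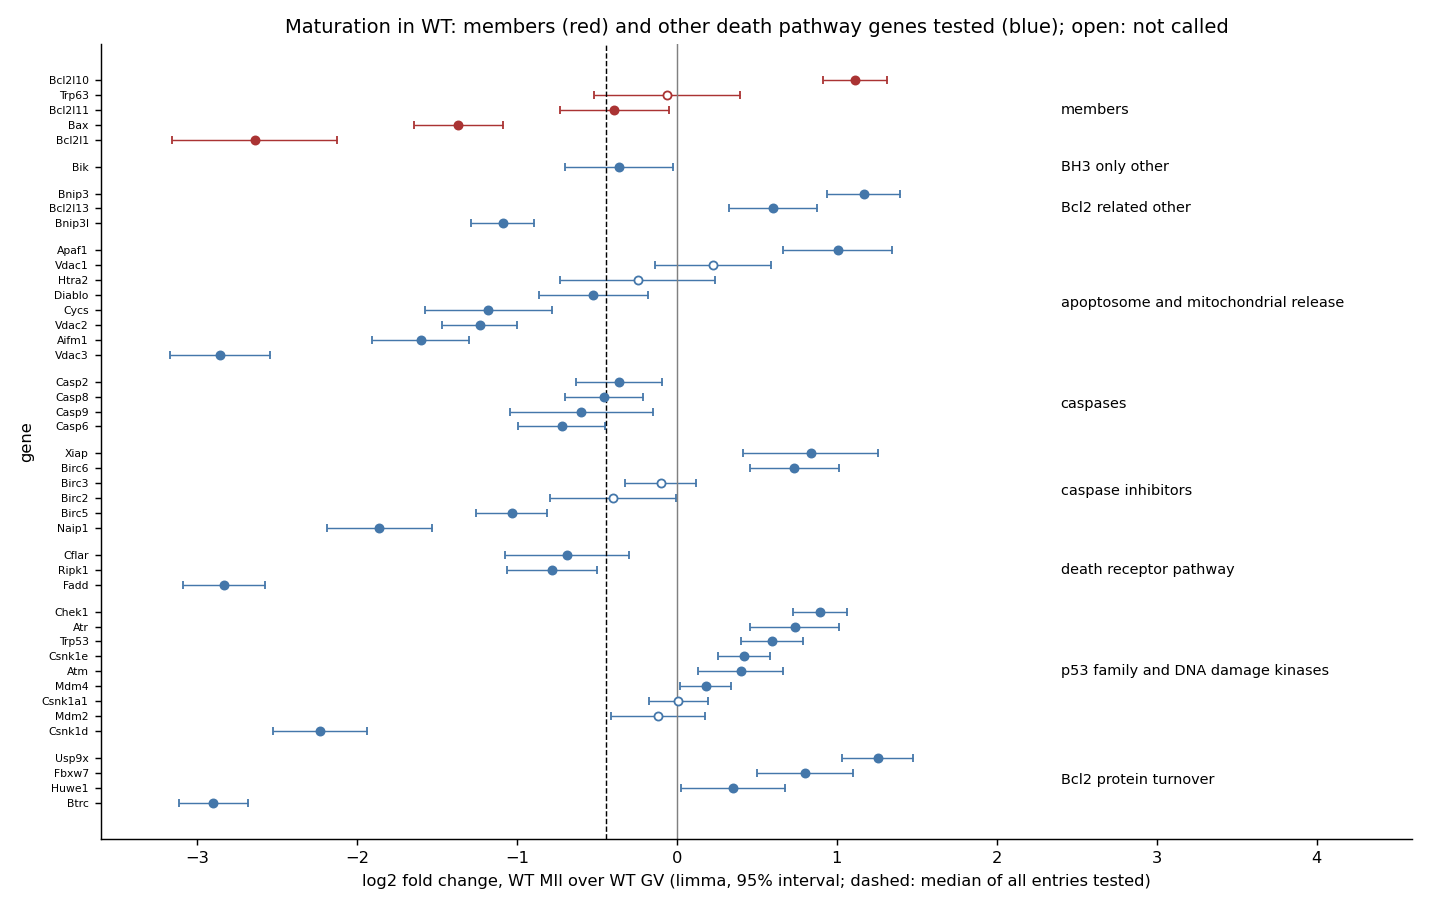
log2 fold changes of WT MII over WT GV with 95% intervals from limma, for the 5 members tested (red) and the 38 other death pathway genes tested (blue), grouped by role. Filled points were called. The dashed line at -0.44 is the median of all entries tested, and Bcl2l10 and Bcl2l1 lie on opposite sides of it.

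Across the 16 libraries, the entries whose log2 FPKM followed Bcl2l10 most closely were Btg4, Srrm1 and Lef1, with Pearson r of 0.997, 0.996 and 0.996 among 10614 entries. For Mcl1 they were Evx1, Trim3 and Malat1, with r of 0.877, 0.850 and 0.847. These are descriptions over libraries that share 2 stages, with values under 1 FPKM set to 1. This holds all Mcl1 egg values at the same level, and with them WT GV replicates 2 and 4 and Psma7 cKO GV replicate 1.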

How the data were processed

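The 16 oocyte libraries were read from 1 deposited table of FPKM values. Per the labels, RNA of 5 oocytes per sample was converted with Smart-seq2 from oligo-dT primers, so transcripts without a poly(A) tail are under-represented. The study's methods name another pool size for embryos in their transcriptome section. The authors made the FPKM values, with TopHat2 2.1.1, Cufflinks 2.2.1 and mm10 in the submitters' processing notes. The annotation is not given in the sources used here, and 0 spike-in entries were in the table. Every FPKM value was a whole number of fragments divided by a feature length and a library total, which gave the depth (28618 of 28618 entries, tolerance 0.0001) and, for members, lengths of 1228 to 11212 nt. The lengths cover whole genes, so isoforms were not separated.

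Groups came from the labels, and limma 3.58.1 (R 4.3.3) was fitted for each pair of groups on log2 FPKM with values under 1 set to 1, for entries with a mean of at least 1 FPKM in the libraries compared. The trend option was used, adjustment was by Benjamini-Hochberg over all entries tested, and calls were at 0.05. Fold changes of low genes are understated on this scale. Mean FPKM of single members was compared with exact two-sided permutation tests (70 arrangements, smallest p 0.0286, SciPy 1.17.1), 19 in all for members outside the filter of a comparison. limma-voom on recovered fragments was added after the data were seen. Tested on simulated data with 200 transcripts changed 3-fold, limma recovered 200 of 200 in each of the 4 pairwise comparisons, with 10, 21, 15 and 2 false calls for GV, MII, WT maturation and Psma7 cKO maturation. The changed transcripts were drawn from well-expressed entries, with 1 fixed spread for all. Recovery of smaller differences, or of differences in members at low FPKM, was not tested. The members and lists were chosen with earlier results of these data known. All 10 members were named, along with other listed genes called between genotypes, the 3 highest and 3 lowest called in WT maturation, the most abundant gene of 4 roles and the 3 entries most like Bcl2l10 and Mcl1. Tradd and Csnk1d were named for their falls in limma-voom. Members were placed and their transcript ends read in GENCODE M21 (GRCm38) by symbol, using the longest protein-coding transcript with a poly(A) signal in its last 50 bases, or the longest if none had one. Promoters and proteins were not used here.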

Additional observations from a re-analysis of the deposited data

Results flagged for a closer look

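Of 38 sets of 4 libraries with any spread (10 members in 4 groups), 7 had 1 library apart from the other three by Dixon's ratio. Chance gives about 1 in 20 for normal values, a rate that does not hold where 3 of the 4 libraries are at 0. WT GV replicate 3 was apart in both directions, with 5777 FPKM of Bcl2l10 against 4723 to 4838 in the others and 12.1 FPKM of Bcl2l1 (1353 fragments) against 23.9 to 25.9. It held 105.6% of the WT GV mean of the transcripts that decline with maturation, against 93.9% to 100.8% in the other three. Bax was at 3.10 FPKM in WT MII replicate 4 against 2.62 to 2.70, on 91 fragments. Bid was at 0.682 FPKM in WT GV replicate 2 against 0.502 to 0.510, on 22 fragments. The remaining flags rest on 2 or 3 fragments against 0: Bcl2 at 0.0310 FPKM in WT MII replicate 4, Bak1 at 0.0724 in WT MII replicate 1 and Bok at 0.0896 in WT MII replicate 3. Of the 5 members that limma tested for a difference between genotypes in maturation change, 0 were called.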

How the results depend on the processing

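The count of members called stayed at 0 for genotype in GV oocytes, in MII eggs and in the difference of maturation changes under every alternative run. In WT maturation 4 members were called, 2 when a mean of at least 5 FPKM was required, which left out Bax and Bcl2l11, 1 by the 3-fold rule, and 3 to 4 when each library was left out. In Psma7 cKO maturation 3 were called, 1 by the 3-fold rule, 5 by limma-voom, which also tested Mcl1 and Bid, and 3 to 5 when each library was left out. The count of 5 came without Psma7 cKO MII replicate 1, which added Bcl2l11 and Trp63. With a replicate block the counts were 0, 0, 3, 3 and 0. Libraries with the same number did not deviate together (r from -0.496 to 0.285), which cannot settle whether they share animals or days. The labels do not say that the numbers pair them, so the block is no paired test. Of 489 single-member fold changes under the alternatives, 469 kept their side of the threshold, 5 passed it, 11 lost it, all for Bcl2l11 in WT maturation, and 4 stayed uncalled but moved by more than their standard error. The 171 differences of mean FPKM kept their value within the spread of replicates. Without the filter most entries had no residual spread, and that fit is unreliable. Bcl2, Bak1 and Bok, with at most 8 fragments per library, limit what depth can show.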
